A study of Mus musculus with 12 samples.

Results

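Chromatin remodellers and enzymes that write or remove methyl groups on lysines of histones were examined in mouse striatum as 62 autosomal genes, chosen by symbol among 13902 features tested. The symbols were those of the Chd, Smarca to Smarce, Arid, Kmt, Kdm, Setd and Nsd families. Of 74 rows whose names fit, 4 lie on the X or Y chromosome and were left out by the rule, and 70 are autosomal. The other 8 autosomal rows stayed under the level filter, a CPM (count scaled to the library total) of 0.5 or more in 3 or more libraries. These were Arid3c, Kdm4d, Kdm8, the pseudogenes Smarca5-ps, Smarce1-ps1, Setd9-ps and Kdm4dl, and the antisense RNA Kdm6bos, with at most 13 counts in any library. Of the 62 genes, 53 passed this level in all 12 libraries and 9 in fewer. Only Arid3b passed it in fewer than 3 libraries of a genotype, namely the libraries labelled TAAR5-KO. The name rule is wider than histone chemistry, since Setd3 encodes an actin histidine methyltransferase and Smarcal1 an enzyme that rewinds DNA at stalled replication forks.

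The libraries came from striatum of 6 TAAR5-KO mice and 6 wild-type littermates (TAAR5-WT in the labels), all on a C57Bl/6 background and 10 months old. TAAR5 is a trace amine-associated receptor, and how the knockout allele was made is not given in the sources used here. According to the methods, both sexes were present in each group, but the data columns carry a genotype and a library number (NK1 to NK12) without sex or animal. Sex was not read from the counts of Y-linked genes and was not a term in any fit. RNA was isolated from a coronal slice after removal of the cortex, depleted of ribosomal RNA and sequenced.

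Chromatin remodellers are ATPases that slide, evict or exchange nucleosomes. The CHD proteins form one family, in which Chd3, Chd4 and Chd5 are the alternative motors of the NuRD complex. SWI/SNF (BAF) complexes are built around Smarca2 or Smarca4 with a set of exchangeable subunits, and Smarca5 is the motor of ISWI complexes. Lysine methyltransferases with a SET domain mark active promoters and enhancers on histone H3 lysine 4, transcribed gene bodies on H3 lysine 36, and compact chromatin on histone H4 lysine 20. The Kdm enzymes remove methyl groups from these or other histone lysines, either by amine oxidation (Kdm1a, Kdm1b) or with a JmjC domain. In neurons, subunit exchange in BAF complexes accompanies differentiation, and loss of function of many of these genes is known from neurodevelopmental disorders.

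The genotype labels were checked first on the targeted gene. Taar5 had 1 to 6 counts in each library labelled TAAR5-KO and 0 to 2 counts in each library labelled TAAR5-WT, which goes against the labels at very low counts. Every direction below follows the labels. Libraries held 11269915 to 34824450 counts, of which ribosomal RNA took between 64.3% and 88.1%. Between 1819907 and 6399188 counts per library lay outside ribosomal RNA, and 6914 to 39249 of these were on the 62 genes. This share ran from 0.271% (NK1) to 0.626% (NK6), so counts outside ribosomal RNA do not give the depth on these genes. The TMM factors, which scale libraries to each other, ran from 0.375 to 2.47. A count of 0 allows up to 3 counts, and 3 counts were between 0.0679 and 0.362 CPM on the normalised scale, so the 9 genes near the filter are imprecise in the shallow libraries. Intervals and this floor cover counting error only where they come from a single library.

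None of the 62 genes differed between genotypes at an adjusted p under 0.1. The likelihood ratio test of edgeR and the threshold were those of the study, and the counts were TMM-normalised. With these, 0 of 62 were called, where the share over all features was 1.65%. The study names CPM scaling and not TMM, and it reported fewer features tested and fewer calls, so its fit was not reproduced exactly. No gene was called by the quasi-likelihood test of edgeR (0 of 62, and 0.453% of all features), and DESeq2 called 0 against 1.27%, with no adjusted p for 11 of the 62. At an unadjusted p under 0.05 the likelihood ratio test returned 8 of the 62 (12.9%), a share near the 11.9% of all features. Leaving out 1 library gave 3 to 12 such genes, with 4 without NK1, 3 without NK7, 3 without NK11 and 12 without NK9. The 8 were Arid4b, Nsd2, Kdm7a, Kdm5a, Kmt2a, Smarcad1, Setd2 and Chd2. All 8 had the higher mean in libraries labelled TAAR5-KO, a direction in which 6.38% of all features had such a p. The smallest adjusted p was 0.157 for Arid4b, followed by 0.293 for Nsd2 and 0.322 for Kdm7a (likelihood ratio test of edgeR). For no gene were the 2 groups of libraries without overlap, where 0.619% of all features had every library labelled TAAR5-KO above every library labelled TAAR5-WT and 0.388% had the opposite. Most of the genes were measured more precisely than the typical feature, at a higher level (median 11.75 CPM against 2.49 over all features) and with less residual spread. The SE of a log2 fold change had a median of 0.10 for these genes and 0.17 for all features, and the median biological coefficient of variation was 0.0985 against 0.125. The 95% interval (a normal interval from the SE) of 57 genes lay within a 1.5-fold change in either direction, as it did for 61.7% of all features.

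**Figure D1:**
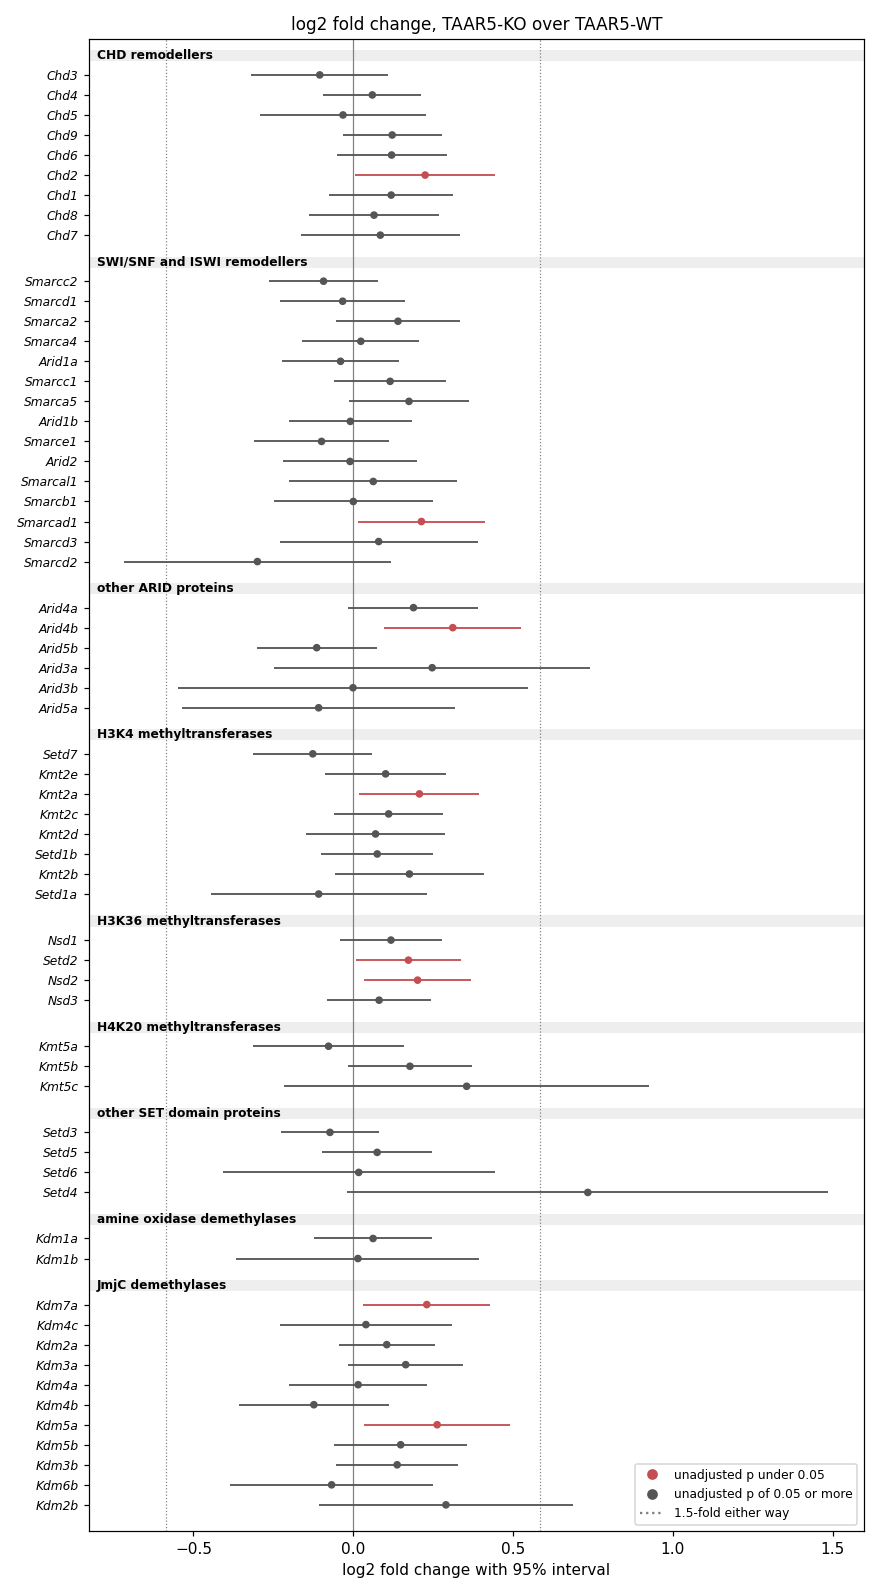
Log2 fold changes of libraries labelled TAAR5-KO over TAAR5-WT for the 62 genes (x axis, point and 95% interval), grouped by role and ordered within a group by level. The 8 genes in red have an unadjusted p under 0.05, none has an adjusted p under 0.1, and the intervals of Setd4, Kmt5c, Smarcd2, Arid3a and Kdm2b reach past the dotted lines at a 1.5-fold change.

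Most of the differences, small as they were, had the same sign. The log2 fold change was above 0 for 44 genes and below 0 for 18, where 48.9% of all features were above 0. The median was 0.08, against −0.01 over all features. For 16 genes (25.8%) all 6 libraries labelled TAAR5-KO were above the median of TAAR5-WT, against 7.73% of all features. For 2 genes, Setd3 and Kdm6b, all 6 were below it, against 7.93% of all features. The genes were measured in the same libraries and are not independent of each other, so these shares are descriptions. Scaled by library size alone, all features had a median of −0.49 and the 62 genes one of −0.42, with 1 of the 62 above 0, so the signs are relative to the TMM scale.

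The 9 CHD remodellers spanned a wide range of level. Per length, Chd3 was the highest of all 62 genes, at 7.85 ± 0.961 CPM per kilobase of merged exons (SD, n = 12 libraries), followed within the family by Chd4 at 4.17 ± 0.224 and Chd5 at 2.38 ± 0.410. Chd7, a regulator of neural progenitors, was the lowest at 0.284 ± 0.0357 CPM per kilobase. Between genotypes the CHD log2 fold changes had a median of 0.08, with 7 above 0 and 2 below. Chd2, a remodeller whose loss causes epilepsy in humans, had the smallest p. It lies on chromosome 7 of GRCm39 from 73076386 to 73191578. Its normalised level ran from 12.5 CPM through a median of 14.8 to 20.8 CPM in libraries labelled TAAR5-KO and from 12.5 through 13.1 to 14.9 CPM in libraries labelled TAAR5-WT. The groups overlapped, and NK1 and NK2 alone of the TAAR5-KO libraries exceeded every TAAR5-WT library by more than 1 CPM. On the log2 scale the difference was 0.22 with an SE of 0.11 (adjusted p = 0.404, likelihood ratio test of edgeR). Without NK1 it was 0.14 (adjusted p = 0.735 in the same test). A further limit is that 14.2% of the exon bases of Chd2 are shared on the same strand with the non-coding RNA Chaserr, and the counting rule for such reads is not stated. The highest gene, Chd3, differed by −0.10 (95% interval −0.32 to 0.11), and Chd4, the most evenly expressed of the 3 NuRD motors, by 0.06 (95% interval −0.09 to 0.21).

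**Figure D2:**
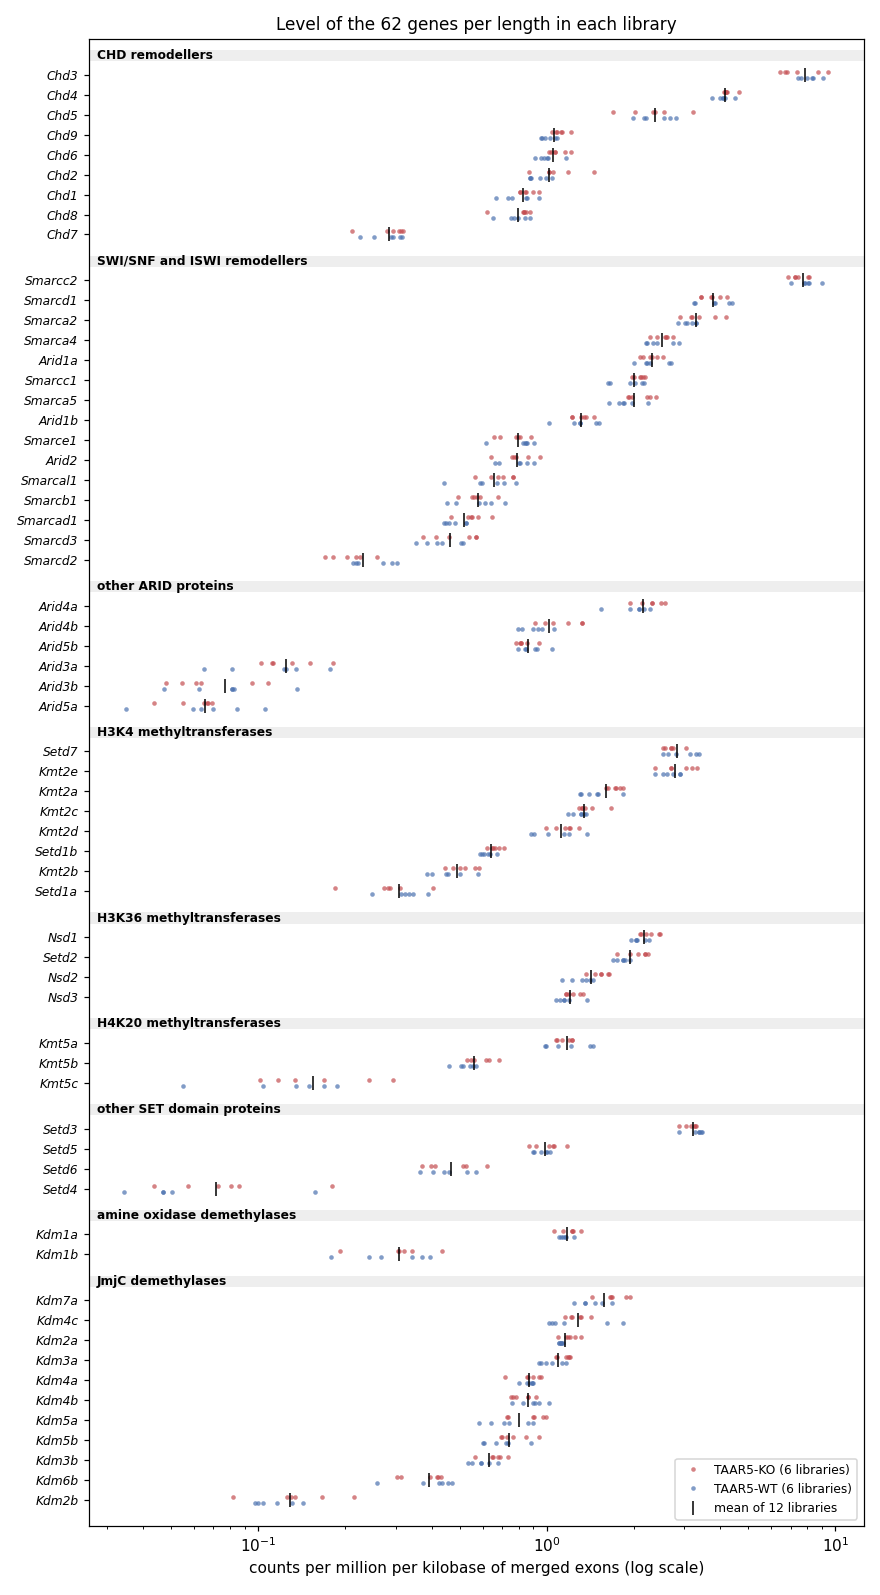
Level of each of the 62 genes in CPM per kilobase of merged exons (x axis, log scale) in each of the 12 libraries, with the mean as a bar, grouped by role. Chd3 and Smarcc2 stand at the upper end near 8 CPM per kilobase and Arid5a, Setd4 and Arid3b at the lower end under 0.1, and the colours of the 2 genotypes overlap for every gene (Setd4 in NK9 is at 0 and is not drawn).

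The 15 genes grouped as SWI/SNF and ISWI had 8 log2 fold changes above 0 and 7 below, with a median of 0.00. Smarcad1 and Smarcal1 were counted here by symbol and not as subunits of these complexes. Smarcc2, a core scaffold of BAF complexes, was the second highest gene of all, at 7.73 ± 0.597 CPM per kilobase. It ran from 38.0 through 40.8 to 44.9 CPM in libraries labelled TAAR5-KO and from 38.9 through 44.2 to 49.8 CPM in libraries labelled TAAR5-WT. Both ATPases of the complex were well expressed, Smarca2 at 2.86 to 4.20 and Smarca4 at 2.22 to 2.88 CPM per kilobase over the 12 libraries. The DNA-binding subunits followed, Arid1a at 2.32 ± 0.211 and Arid1b at 1.32 ± 0.137 CPM per kilobase. Smarcb1, the core subunit lost in rhabdoid tumours, stood at 0.578 ± 0.0788 CPM per kilobase and its log2 fold change was 0.00 (95% interval −0.25 to 0.25). The smallest p of the group belonged to Smarcad1, a remodeller linked to heterochromatin and DNA end resection. Its level ran from 6.22 through 7.30 to 8.58 CPM in libraries labelled TAAR5-KO and from 5.87 through 6.25 to 7.01 CPM in libraries labelled TAAR5-WT. This gave a log2 difference of 0.21 with an SE of 0.10 (adjusted p = 0.373, likelihood ratio test of edgeR). With the GC trend removed it was at 0.04 (adjusted p = 0.953 in the same test). Smarcd2 had the lowest log2 fold change of all 62 genes, −0.30 (95% interval −0.72 to 0.12), from 7 to 46 counts per library. It ran from 0.613 through 0.756 to 0.924 CPM in libraries labelled TAAR5-KO and from 0.767 through 0.884 to 1.09 CPM in libraries labelled TAAR5-WT, with overlap. With the GC trend removed Smarcd2 was at −0.19. For Smarcd3, 48.2% of the exon bases are also exon of Chpf2 on the opposite strand, so its level is uncertain unless the counting used strand.

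Of the 6 other ARID genes, 3 had a log2 fold change above 0 and 3 below. Arid4a and Arid4b, subunits of the Sin3 deacetylase complex, stood at 2.16 ± 0.270 and 1.02 ± 0.177 CPM per kilobase, with log2 fold changes of 0.19 and 0.31. Arid4b (chromosome 13, 14237817 to 14374188) had the smallest p of all 62 genes. It ran from 15.4 through 19.0 to 22.5 CPM in libraries labelled TAAR5-KO and from 13.5 through 15.5 to 17.96 CPM in libraries labelled TAAR5-WT. NK1, NK2 and NK3 lay above every TAAR5-WT library, and NK4, NK5 and NK6 lay inside the TAAR5-WT range. The fitted log2 difference was 0.31 with an SE of 0.11 and a 95% interval of 0.10 to 0.53 (adjusted p = 0.157, likelihood ratio test of edgeR). In the 12 fits that left out 1 library, Arid4b passed the threshold without NK4 (0.36, adjusted p = 0.0511) and without NK9 (0.36, adjusted p = 0.0822), and no member passed in the other 10. NK1, NK2, NK3 and NK9 were the 4 libraries with the highest ribosomal RNA share, 86.6%, 87.1%, 88.1% and 87.4%, and NK9 had the highest Arid4b level of the libraries labelled TAAR5-WT. NK10, with the next highest share of 85.6%, had Arid4b at 15.2 CPM, below NK7 and NK8 and above NK11 and NK12. With that share as a covariate, Arid4b differed by 0.23 (adjusted p = 0.446 in the same test). Whether the ribosomal RNA share is behind the Arid4b values was not tested. Arid5b, in contrast, was at −0.11 (95% interval −0.30 to 0.07). Arid3a, Arid3b and Arid5a were close to the filter, at 0.125, 0.0767 and 0.0654 CPM per kilobase.

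The 8 genes grouped with methyltransferases of H3 lysine 4, Kmt2e included, had 6 log2 fold changes above 0 and 2 below, with a median of 0.09. Setd7 was the highest of them per length at 2.83 ± 0.296 CPM per kilobase, then Kmt2e at 2.78 ± 0.297, a relative of the MLL enzymes without known catalytic activity. Kmt2a (MLL1, chromosome 9, 44714652 to 44792594), known for the control of Hox genes, had the smallest p in this group. It ran from 26.8 through 28.8 to 30.64 CPM in libraries labelled TAAR5-KO and from 21.7 through 24.1 to 30.65 CPM in libraries labelled TAAR5-WT. All 6 libraries labelled TAAR5-KO were above 5 of the 6 labelled TAAR5-WT, and NK7, labelled TAAR5-WT, stood level with NK2 at the top. The difference was 0.21 on the log2 scale with an SE of 0.096 (adjusted p = 0.350, likelihood ratio test of edgeR). Its relatives Kmt2b, Kmt2c and Kmt2d were at 0.18, 0.11 and 0.07, each with an interval that included 0. Setd7 had the second lowest log2 fold change of the 62, −0.13 (95% interval −0.31 to 0.06), from 27.3 through 29.1 to 32.9 CPM in libraries labelled TAAR5-KO and from 27.4 through 32.1 to 36.4 CPM in libraries labelled TAAR5-WT. Setd1a, at −0.11, shares 51.8% of its exon bases with another annotated feature on its own strand and is uncertain.

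The 4 methyltransferases of H3 lysine 36 all had log2 fold changes above 0, from 0.08 for Nsd3 to 0.20 for Nsd2. Nsd1, the gene of Sotos syndrome, stood highest at 2.18 ± 0.163 CPM per kilobase, and Setd2, which trimethylates lysine 36 behind RNA polymerase, at 1.95 ± 0.187. Nsd2 (chromosome 5, 33978069 to 34055319) ran from 23.1 through 25.9 to 27.6 CPM in libraries labelled TAAR5-KO and from 19.1 through 22.6 to 24.4 CPM in libraries labelled TAAR5-WT. Only NK4 among the libraries labelled TAAR5-KO lay inside the range of the other group. In the fit it differed by 0.20 on the log2 scale with an SE of 0.086 and a 95% interval of 0.03 to 0.37 (adjusted p = 0.293, likelihood ratio test of edgeR). Setd2 was at 0.17 (95% interval 0.01 to 0.34).

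Among the 3 methyltransferases of H4 lysine 20, Kmt5b had the smallest p, with 7.81 through 8.65 to 10.1 CPM in libraries labelled TAAR5-KO and 6.75 through 7.79 to 8.37 CPM in libraries labelled TAAR5-WT. Its log2 fold change was 0.18 (95% interval −0.02 to 0.37). Kmt5c was at 0.35 with an interval from −0.22 to 0.93, measured on 2 to 30 counts per library. It ran from 0.406 through 0.608 to 1.18 CPM in libraries labelled TAAR5-KO and from 0.219 through 0.572 to 0.753 CPM in libraries labelled TAAR5-WT, so its fold is poorly fixed. Without NK4 it was at 0.19, and with the ribosomal RNA share as a covariate at 0.54. Of the 4 other SET domain genes, Setd4 had the largest log2 fold change of all 62 genes, 0.73, with an interval from −0.02 to 1.49. It had 0 to 15 counts per library, and its level ran from 0.235 through 0.413 to 0.974 CPM in libraries labelled TAAR5-KO and from 0 through 0.252 to 0.844 CPM in libraries labelled TAAR5-WT. The groups overlapped and the interval included 0. Setd3, the actin methyltransferase, was at 3.22 ± 0.197 CPM per kilobase and differed by −0.07 (95% interval −0.23 to 0.08).

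Of the 13 demethylase genes tested, 11 had a log2 fold change above 0. The amine oxidase Kdm1a (LSD1), part of the CoREST repressor that silences neuronal genes in other tissues, was the gene with the least residual spread, with a biological coefficient of variation of 0.0648. Its level ran from 5.47 through 6.34 to 6.82 CPM in libraries labelled TAAR5-KO and from 5.73 through 5.94 to 6.46 CPM in libraries labelled TAAR5-WT, with a log2 fold change of 0.06 (95% interval −0.12 to 0.25). It was 0.10 without NK2 and 0.03 with no level filter. The 11 JmjC genes had a median of 0.14. Kdm7a (chromosome 6, 39113557 to 39183723), which acts on H3 lysine 9 and lysine 27, was the highest of them per length at 1.58 ± 0.213 CPM per kilobase and had the smallest p. It ran from 14.49 through 16.8 to 19.5 CPM in libraries labelled TAAR5-KO and from 12.5 through 14.3 to 16.9 CPM in libraries labelled TAAR5-WT, which in the fit was a log2 difference of 0.23 with an SE of 0.10 (adjusted p = 0.322, likelihood ratio test of edgeR). With the GC trend removed it was at 0.11 (adjusted p = 0.851 in the same test). Kdm5a, an eraser of H3 lysine 4 methylation, was at 0.26 (95% interval 0.03 to 0.49). Kdm4b had the lowest value of the demethylases, −0.12 (95% interval −0.36 to 0.11), from 3.70 through 4.02 to 4.49 CPM in libraries labelled TAAR5-KO and from 3.70 through 4.43 to 5.00 CPM in libraries labelled TAAR5-WT. It was at −0.06 without NK12, at −0.007 with the GC trend removed, and at −0.08 in the fit with the ribosomal covariate. Kdm6b, an eraser of H3 lysine 27 methylation that responds to stimuli, was at −0.07 (95% interval −0.38 to 0.25).

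**Figure D3:**
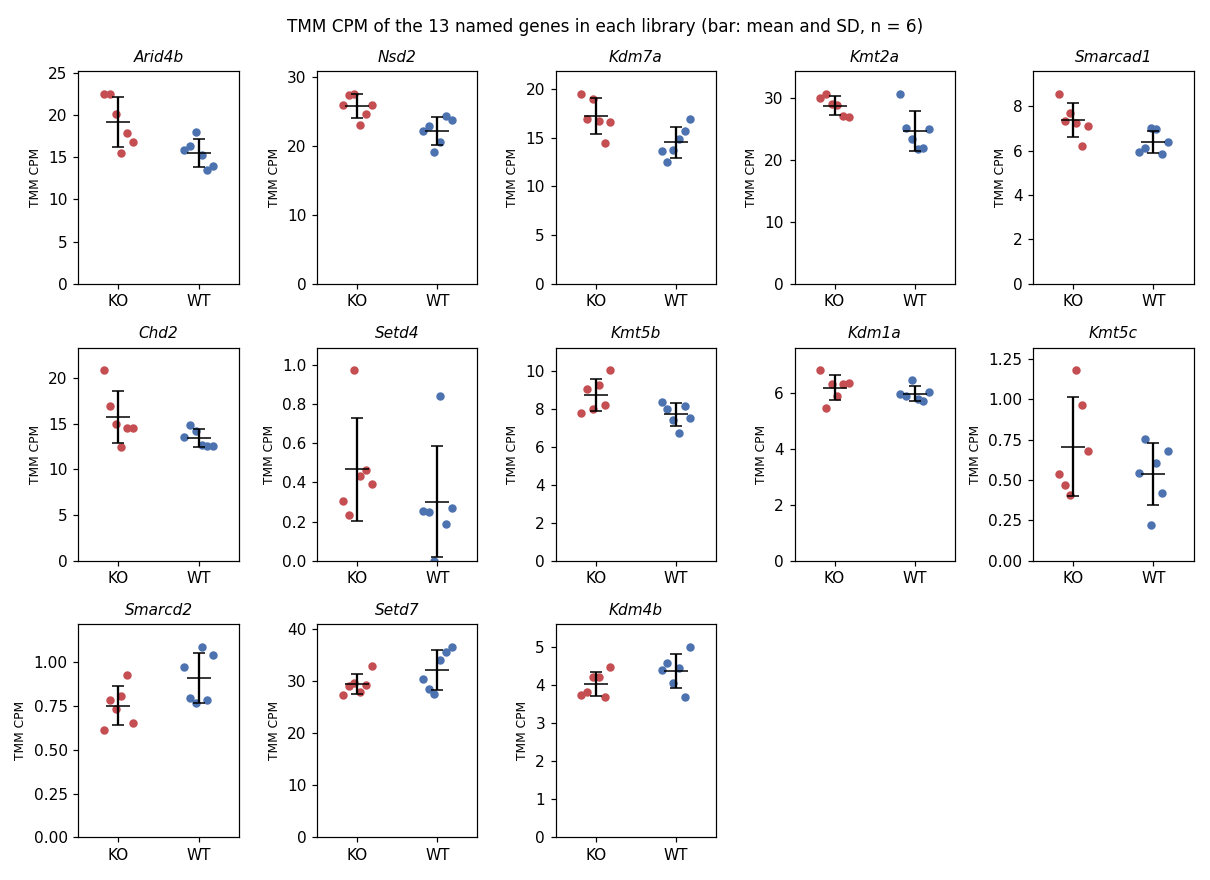
TMM-normalised CPM (y axis, from 0) of the 13 genes named by p or fold change, 1 point per library, with the mean and SD (n = 6) of libraries labelled TAAR5-KO and TAAR5-WT. The groups overlap in every panel, and Setd4 and Kmt5c are near 1 CPM or lower in all libraries but NK4 for Kmt5c at 1.18.

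Ratios within a library compare related genes without the scaling between libraries. Smarca2 exceeded Smarca4 per length in 12 of 12 libraries, with a median ratio of 1.29 (range 1.07 to 1.60). Smarcc2 exceeded Smarcc1 in all 12 by 3.23 to 4.89 times, and Smarcd1 exceeded Smarcd3 by 6.03 to 10.9 times and Smarcd2 by 12.7 to 23.4 times. Within these sets Smarcc2, Smarcd1 and, by a small margin, Smarca2 had the highest level per length. Chd3 exceeded Chd4 in all 12 libraries (median ratio 1.87), and Chd5, a NuRD motor typical of neurons, was below Chd4 in all 12 (median ratio 0.556). Kmt2a exceeded Kmt2b in all 12 (median ratio 3.39), while Kmt2c and Kmt2d were close, with a median ratio of 1.16 and 1 library on the other side. Kdm5b and Kdm5a were not ordered, with Kdm5b the higher in 3 of 12. The ratios of the genotypes overlapped for each of the 19 pairs examined. The values use merged exon lengths, which overstate the length of the expressed transcript where a gene has long rare exons, so that small ratios could be moved by the annotation.

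**Figure D4:**
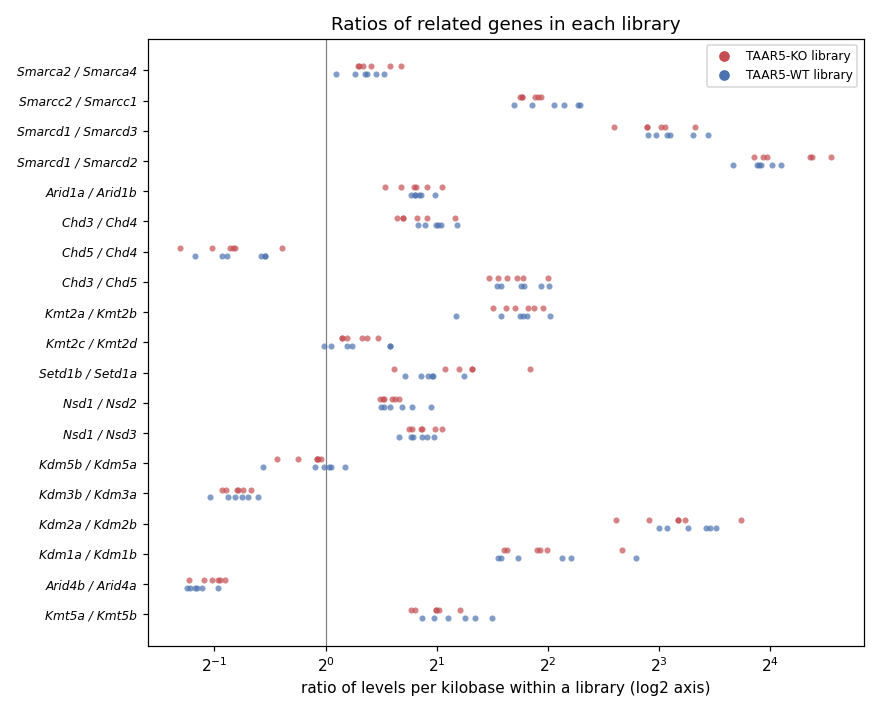
Ratios of levels per kilobase between 19 pairs of related genes (x axis, log2 scale), 1 point per library, coloured by genotype label. Smarca2 over Smarca4 lies between 1.07 and 1.60, Smarcd1 over Smarcd2 lies furthest to the right at 12.7 to 23.4, and the points of the 2 genotypes overlap in each line.

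The small differences varied with the base composition of the genes, and also with their length. The GC content of merged exons ran from 38.6% for Smarcad1 to 60.2% for Smarcd3. The contrast can be read in coding sequence of the remodelling ATPases around a motif of their catalytic centre. The windows were located by searching the translated sequences for this motif, so its presence in each was fixed by the search. Printed are windows of 60 bases of coding sequence (GRCm39, GENCODE M39 canonical transcripts, sense strand) around motif II of the helicase-type ATPase, whose 4 codons stand in capitals. These encode aspartate, glutamate, alanine and histidine (the DEAH box), with glycine in place of alanine in Smarca2 and Smarca4. They are shown from low to high exon GC.
Smarca5: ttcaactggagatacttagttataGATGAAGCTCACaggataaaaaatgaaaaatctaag
Chd9: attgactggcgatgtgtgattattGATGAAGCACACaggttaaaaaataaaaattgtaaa
Chd2: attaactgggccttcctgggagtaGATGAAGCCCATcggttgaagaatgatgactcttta
Smarca2: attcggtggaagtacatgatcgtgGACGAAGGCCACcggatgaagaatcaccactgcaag
Chd4: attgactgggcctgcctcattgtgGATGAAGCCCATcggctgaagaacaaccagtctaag
Smarca4: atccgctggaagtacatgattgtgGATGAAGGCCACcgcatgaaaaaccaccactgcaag
Chd5: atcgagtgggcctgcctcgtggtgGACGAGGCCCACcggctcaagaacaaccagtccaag
The Smarca5 window lies at chr8:81452840-81452899 on the minus strand in coding exon 7, and that of Chd5 at chr4:152455040-152455099 on the plus strand in coding exon 16. The others lie at chr8:91721175-91721234 (Chd9, plus strand), chr7:73140343-73140402 (Chd2, minus), chr19:26659271-26659330 (Smarca2, plus), chr6:125085700-125085759 (Chd4, plus) and chr9:21578462-21578521 (Smarca4, plus). The search, which allowed alanine or glycine at the third residue, located 13 Chd and Smarca ATPases. The residue was alanine in 10 and glycine in Smarca2, Smarca4 and Smarcad1. Over these 13 the window GC ran from 30.0% to 63.3%. Smarca5 and Chd9 were at 30.0%, Smarca2 and Chd4 at 51.7%, Smarca4 at 50.0% and Chd5 at 63.3%. Chd4 and Chd5 share 51 of the 60 bases, and Smarca2 and Smarca4 share 53. The log2 fold changes in the printed order were 0.17, 0.12, 0.22, 0.14, 0.06, 0.02 and −0.03. The ATPases not printed were at 0.21 (Smarcad1), 0.12 (Chd1), 0.12 (Chd6), 0.065 (Chd8), 0.08 (Chd7) and −0.10 (Chd3), again from low to high exon GC. Over all 13 the values did not fall steadily with exon GC, with Chd8 below Smarca2 and Chd3 below Smarca4 and Chd5.

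Across the 62 genes, log2 fold change and GC content had a Spearman's rho of −0.41 and a Pearson's r of −0.32. Across all 13871 features with a known GC content, the values were −0.39 and −0.33. These correlations are across genes that share the 12 libraries, so no test is attached. All 16 genes with a GC content up to 45% had a log2 fold change above 0, and 7 of the 8 genes with an unadjusted p under 0.05 were among them, Kmt2a at 50.6% being the other. In the 8 genes up to 42% the median was 0.19, where the 2237 features of that range had 0.14. In the 9 genes from 54% to 57% it was −0.09, where the features had −0.11. The median of the genes was above that of the features in each of the 7 GC ranges, the gap being widest over 57%, at 0.07 against −0.13 for 7 genes. Longer genes also had higher values (rho 0.35 over the 62, 0.11 over all features), and within the 62 GC content and log2 length were themselves related (rho −0.43). When each library's trend on GC content was removed, the median of the 62 genes was 0.09 and 51 of them were above 0. With that removal 4 genes had an unadjusted p under 0.05 (6.45%, against 9.21% of all features), and Arid4b was at 0.18 (adjusted p = 0.547, likelihood ratio test of edgeR).

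**Figure D5:**
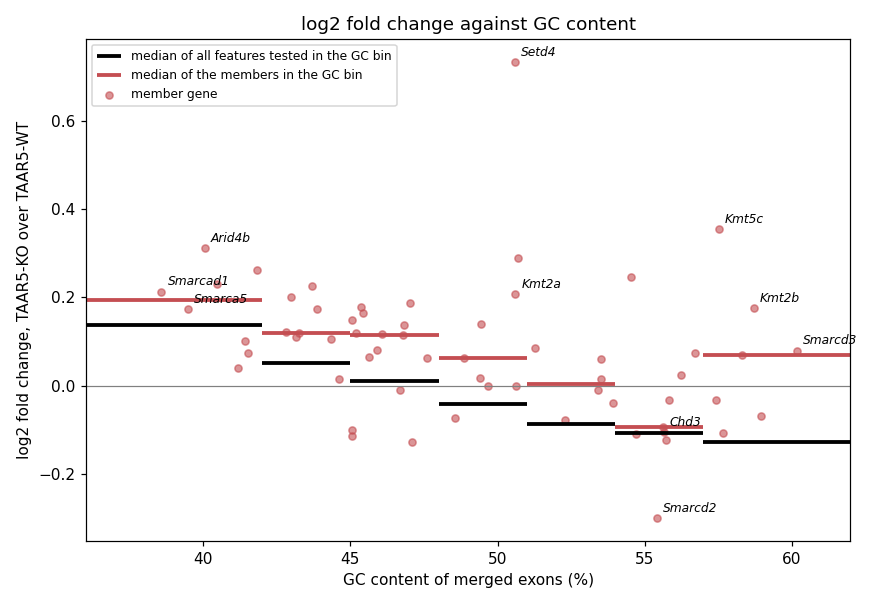
Log2 fold change (y axis) against GC content of merged exons in percent (x axis) for the 62 genes, with bars for the median of the genes (red) and of all features tested (black) in 7 ranges of GC content, the outer ranges being drawn to the edge of the plot. The black bars step down from 0.14 to −0.13, and the red bars lie above them in each range.

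By library, the median of the genes of low GC content did not overlap between the genotype labels, and the gap between low and high GC content did. The median deviation of the 16 genes under 45% GC from their mean over the 12 libraries ran from −0.02 (NK4) to 0.26 (NK1) on the log2 scale in libraries labelled TAAR5-KO, and from −0.15 (NK11) to −0.05 (NK9) in libraries labelled TAAR5-WT. These ranges did not overlap, with NK4 and NK9 nearest to each other. All 16 genes had a positive log2 fold change in the same 12 libraries, so the missing overlap restates that direction and is no separate support. The same median over all features of low GC content was not examined. For the 16 genes over 54% GC the ranges were −0.11 to 0.07 and −0.15 to 0.15, and overlapped. The gap between both sets ran from −0.01 (NK6) to 0.19 (NK1) in libraries labelled TAAR5-KO and from −0.27 (NK12) to 0.11 (NK9) in libraries labelled TAAR5-WT. These ranges overlapped, with NK9 above NK3, NK4, NK5 and NK6. Over all features the gap ran from −0.01 to 0.28 and from −0.29 to 0.08, again with NK9 above NK4, NK5 and NK6. Both GC bounds were set with these values known.

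Other chromatin genes, from a list of 129 symbols of which 123 were tested, gave 1 call. Mtf2, a Polycomb-like protein that brings the H3 lysine 27 methyltransferase complex to CpG islands, had a mean of 6.31 ± 0.990 CPM under the label TAAR5-KO and of 4.57 ± 0.457 CPM under TAAR5-WT (SD, n = 6 each). Its 6 values labelled TAAR5-KO ran from 5.13 to 7.39 CPM and the others from 4.05 to 5.19 CPM, so that the groups overlapped narrowly. Its log2 difference was 0.44 with an SE of 0.13 (adjusted p = 0.0592, likelihood ratio test of edgeR), and the call was lost when NK1, NK2, NK3, NK8, NK11 or NK12 was left out. The quasi-likelihood test of edgeR did not call it (adjusted p = 0.130), and with the GC trend removed it was at 0.27 (adjusted p = 0.459), its GC content being 38.7%. The 123 genes had a median of 0.03. By group, the median was 0.06 for 21 Polycomb genes, 0.04 for 12 partner subunits of COMPASS, the H3 lysine 4 methylation complex, and 0.01 for 18 partner subunits of SWI/SNF. It was 0.00 for 16 partners of NuRD and ISWI, 0.04 for 7 genes of INO80, SRCAP and other remodelling ATPases, and 0.07 for 6 DNA methylation genes. Lysine methyltransferases outside the name rule (13 genes), other JmjC proteins (7), histone acetyltransferases (10) and deacetylases (13) had medians of −0.03, −0.03, 0.00 and −0.02. None of these groups beside the Polycomb genes held a called gene.

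In the same libraries, marker genes of spiny neurons and of glia each had a single direction by genotype label. Those of endothelium, ependyma and cortical pyramidal neurons were mixed in direction. All 9 markers of spiny neurons, the main neurons of the striatum, were detected in this tissue, and all 9 had a log2 fold change above 0 (median 0.32, 0 called). Their summed level was 333 to 431 CPM in libraries labelled TAAR5-KO and 196 to 370 CPM in libraries labelled TAAR5-WT. All 8 astrocyte markers, 7 mature oligodendrocyte markers, 5 oligodendrocyte precursor markers and 7 microglia markers were below 0. Their medians were −0.35, −0.22, −0.26 and −0.36, in that order. Of these markers, Gja1, Olig1, P2ry12 and Csf1r were called by the likelihood ratio test, where the share over all features was 1.65%. The quasi-likelihood test called Olig1 alone of them, where the share over all features was 0.453%. Summed levels were 1044 to 1245 against 1151 to 1356 CPM for astrocytes, 580 to 713 against 620 to 792 for oligodendrocytes, 14.9 to 20.5 against 21.3 to 23.8 for their precursors and 24.8 to 35.2 against 34.6 to 44.4 for microglia. Markers of endothelium (6 genes, median 0.04), ependyma (4 of 5 tested, 0.16), choroid plexus (5, −0.59) and cortical pyramidal neurons (5, 0.00) held no called gene, and the summed choroid plexus level ran from 2.60 to 467 CPM. Long non-coding RNAs held in the nucleus, chosen with earlier results of these data known, were all above 0 (10 of 10, median 0.54) and 6 were called, among them Malat1 and Meg3. In bulk tissue, fewer cells of a type and less RNA per cell cannot be told apart, and the part of these shifts in the values of the 62 genes was not tested.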

How the data were processed

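Per the authors, adapters were cut from single-end reads (cutadapt 4.1), STAR 2.7.11b placed them on GRCm39, and featureCounts 2.0.6 assigned them to GENCODE genes. They deposited whole-number counts per gene with merged exon lengths, without normalization or pooling. The strand setting and the treatment of multi-mapping or overlapping reads are not given in the sources used here, so overlapping genes are uncertain. A column gives a genotype but no animal, so p-values measure the spread between libraries. A further 12 columns belong to samples not analysed here.

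All features that reached 0.5 CPM in 3 or more libraries entered 1 fit in edgeR 4.0.16 (R 4.3.3) with TMM factors, estimateDisp, glmFit and glmLRT. Genotype was the only term, and the call was a p under 0.1 after Benjamini–Hochberg adjustment across all of them. SEs came from the same fit. The quasi-likelihood test and DESeq2 1.42.0 were run beside it. Levels per length are TMM CPM divided by merged exon length. GC content came from GRCm39 with GENCODE M39, a later release, known for 13871 of 13902 features. Trends were removed through offsets (loess, span 0.5). Log2 CPM had a prior count of 2. The main, quasi-likelihood, DESeq2 and GC-trend fits were run on a simulated data set. It held no GC trend, so removal of such a trend was not tested there. The other fits were not run on simulated data.

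Named genes were those called, the smallest p in each role group, and the 3 largest and 3 smallest log2 fold changes. By level, the 3 highest and 3 lowest per length were named. Others were added by family after their values were seen. The genes and lists were chosen with earlier results of these data known.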

Additional observations from a re-analysis of the deposited data

Results flagged for a closer look

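The level of Setd4 held a distant library in each genotype. Among libraries labelled TAAR5-KO, NK3 was at 0.974 CPM, where the other 5 lay between 0.235 and 0.462 CPM. Among libraries labelled TAAR5-WT, NK10 was at 0.844 CPM, where the other 5 lay between 0 and 0.272 CPM. The counts behind these values were 12 in NK3 and 7 in NK10, with at most 15 in any library. The gap of a library to its nearest neighbour was compared with the range of its group for 13 named genes and the summed level of all 62, in 28 groups of 6 libraries, and chance flags about 1 in 20 such groups. No other value was flagged.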

How the results depend on the processing

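No member was called by the quasi-likelihood test, DESeq2, library size alone, RLE factors, filterByExpr (which kept 61 of the 62), no level filter, a threshold of 0.05, exclusion of ribosomal RNA features or of the length or GC trend, or the ribosomal RNA share as covariate. In fits without 1 library, 0 to 1 members were called. All features called numbered 229, and 63 with the quasi-likelihood test, 7 with library size alone, 93 with no filter, 108 at 0.05, 91 with the GC trend removed, 102 with the ribosomal covariate, and 90 to 421 without 1 library (114, 114, 137, 421, 102, 90 and 141 without NK1, NK2, NK3, NK4, NK7, NK11 and NK12). The 1 companion call became 0 in these same 6 settings, and 0 to 1 without 1 library. The members' median of 0.08 was −0.42 with library size alone and 0.06 to 0.11 without 1 library. Of 142 values of named genes under alternatives other than leaving out a library, 133 kept their direction and stayed uncalled, though several shrank: with the GC trend removed Arid4b was at 0.18, Kdm7a at 0.11, Smarcad1 at 0.04, Smarcd2 at −0.19 and Kdm4b at −0.007. The other 9 reversed with library size alone, where all features shift: Arid4b −0.23, Nsd2 −0.33, Kdm7a −0.33, Kmt2a −0.36, Smarcad1 −0.30, Chd2 −0.32, Kmt5b −0.29, Kdm1a −0.42 and Kmt5c −0.026. Depth limits Setd4, Kmt5c, Smarcd2, Arid3a and Kdm2b, whose intervals pass a 1.5-fold change. No paired analysis was possible because the data columns carry no animal number.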
